A study of Mus musculus with 10 samples.

Results

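The proteasome is the barrel-shaped protease that degrades ubiquitin-tagged proteins. Its 20S core is built of alpha and beta rings, and its 19S cap recognises, unfolds and feeds the substrate. In cells exposed to interferon gamma the catalytic beta subunits Psmb5, Psmb6 and Psmb7 are replaced in newly built cores by Psmb8, Psmb9 and Psmb10, and the 11S activator made of Psme1 and Psme2 can take the place of a cap. This immunoproteasome is known for cutting peptides for MHC class I molecules, and leukocytes carry it constitutively. The genes described here were the probe sets with 1 gene symbol whose symbol starts with Psm, a letter from a to g and a number. The rule found 56 probe sets of 21789 with 1 symbol, which gave 50 of 19938 genes. Of these genes 5 form the immune set (Psmb8, Psmb9, Psmb10, Psme1 and Psme2), 43 are constitutive or tissue-restricted subunits, regulators and assembly chaperones, and 2 carry the name without being subunits. The members and the lists beside them were taken up with earlier results of these data known.

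RNA of 10 melanoma tumours of male mice was measured on whole-transcript arrays, 1 per tumour, in 5 Exercise and 5 non-Exercise arrays. The series title names voluntary exercise; the labels leave out strain, age, duration of the exercise and origin of the tumours, and no other treatment is named for either group. Arrays are called by the number in their title, which is 300, 301, 306, 309 and 310 for Exercise and 326, 327, 329, 330 and 331 for non-Exercise. Nothing states that a number is 1 animal, so the p-values describe only how these samples scatter, which may be technical, and the number of arrays limits the precision. All 10 melanocytic markers, among them Mlana, Pmel and Tyr, lay between percentiles 95.4 and 99.9 of the mean level of all genes. Levels are log2 values after quantile normalization, a change is the Exercise mean less the non-Exercise mean with its standard error (SE) after ±, and adjusted p-values are from limma with Benjamini-Hochberg adjustment over all 19938 genes, with 0.05 as the threshold. Exercise arrays 306, 309 and 310 stood apart: 10 of 12 measured hepatocyte markers, led by Alb (albumin), were higher on each of the 3 than on any of the other 7 arrays, so results that rest on them are given with and without them.

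The promoters of Psmb9, Psmb8, Psme1 and Psmb5 are shown because the first 3 belong to the immune set and the last to the constitutive subunit that Psmb8 replaces. Each window runs from 250 bases before to 50 bases after the gene start in RefSeq's GRCm38.p6, written along the gene's strand. Capitals mark matches, on either strand, to the core of the interferon-stimulated response element (ISRE, the letters GAAA, any 2 bases, and GAAA again), to TTCNNNGAA (gamma-activated site, GAS) or to TGACNNNGC (core of the antioxidant response element, ARE, bound by the proteasome gene activator encoded by Nfe2l1). None of these matches overlaps another.
Psmb9, chr17:34187281-34187580, minus strand: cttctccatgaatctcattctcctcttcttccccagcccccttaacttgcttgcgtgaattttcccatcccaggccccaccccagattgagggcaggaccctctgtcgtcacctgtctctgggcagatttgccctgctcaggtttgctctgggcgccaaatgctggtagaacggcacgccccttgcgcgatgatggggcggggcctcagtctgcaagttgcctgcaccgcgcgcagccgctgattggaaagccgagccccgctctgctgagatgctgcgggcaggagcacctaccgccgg
Psmb8, chr17:34197945-34198244, plus strand: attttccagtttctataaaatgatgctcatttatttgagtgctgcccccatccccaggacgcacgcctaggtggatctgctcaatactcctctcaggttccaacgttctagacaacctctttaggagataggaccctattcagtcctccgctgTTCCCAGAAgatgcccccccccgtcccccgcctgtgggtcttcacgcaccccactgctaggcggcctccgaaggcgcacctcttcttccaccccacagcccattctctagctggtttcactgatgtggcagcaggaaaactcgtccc
Psme1, chr14:55578244-55578543, plus strand: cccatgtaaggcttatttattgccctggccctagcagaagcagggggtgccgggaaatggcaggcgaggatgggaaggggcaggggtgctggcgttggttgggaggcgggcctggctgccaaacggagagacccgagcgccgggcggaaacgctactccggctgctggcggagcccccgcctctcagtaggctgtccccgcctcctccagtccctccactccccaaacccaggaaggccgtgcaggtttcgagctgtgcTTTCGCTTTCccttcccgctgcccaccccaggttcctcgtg
Psmb5, chr14:54617946-54618245, minus strand: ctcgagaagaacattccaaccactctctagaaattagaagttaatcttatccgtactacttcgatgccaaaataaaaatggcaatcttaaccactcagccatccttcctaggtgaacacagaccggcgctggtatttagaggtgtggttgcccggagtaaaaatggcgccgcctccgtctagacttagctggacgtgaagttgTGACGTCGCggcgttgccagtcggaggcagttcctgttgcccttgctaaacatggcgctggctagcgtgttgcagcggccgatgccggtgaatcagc
The Psmb8 window holds a GAS match that starts 97 bases before the gene start, the Psme1 window an ISRE match just after it, and the Psmb5 window an ARE match that starts 47 bases before it. The Psmb9 window matches none of the letters and shares 275 bases with the window of Tap1, the peptide transporter gene that starts 226 bases away in the opposite direction. Windows were found for 42 member genes, including the whole immune set. An ISRE match was present in 5 of the 42, or 11.9%, against 3.99% of all 27025 genes with a window. These were Psme1 of the immune set and the constitutive Psmb3, Psmg4, Psmd4 and Psmd9. A GAS match was present in 3, or 7.14%, against 9.55%, namely Psmb8 and the constitutive Psmd2 and Psmg1. An ARE match was present in 6, or 14.3%, against 14.0%, none of them in the immune set. The windows of Psmb10 and Psme2, which are not printed, matched none of the letters. A match is a description of letters, and the absence of one says nothing about a factor. On the map Psmb9, Tap1, Psmb8 and Tap2 are consecutive protein-coding genes of the MHC on chromosome 17, and Psme1 and Psme2 lie on chromosome 14 with 1 gene between them.

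Psmb9 was the 1 gene of the immune set that passed the test, and all 5 had a positive change. The 3 catalytic immune subunits were high on Exercise arrays 306, 309 and 310, while Exercise arrays 300 and 301 lay within the range of the non-Exercise arrays. In the whole comparison 17.0% of genes passed in either direction, and 6.35% were higher. At an unadjusted limma p under 0.05, a cutoff also counted for the lists below, 2241 of all 19938 genes were higher and 3581 lower. Of all called genes 37.4% were higher, or 23.4% where arrays were only centred on their medians.

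Psmb9, the immune counterpart of the caspase-like subunit Psmb6, had levels of 9.17, 9.14, 11.95, 11.45 and 10.50 on Exercise arrays 300, 301, 306, 309 and 310, against 9.72, 8.85, 8.73, 9.19 and 8.70 on non-Exercise arrays 326, 327, 329, 330 and 331. The groups overlapped, since array 326 exceeded Exercise arrays 300 and 301. The mean was 10.44 ± 1.29 in Exercise tumours and 9.04 ± 0.43 in non-Exercise tumours (SD, n = 5 each), a log2 change of 1.40 ± 0.46, or 2.65-fold (limma adjusted p = 0.0496). Leaving out array 306, 309 or 310, or any 1 array of the non-Exercise group, removed the call (adjusted p from 0.00942 to 0.116 leaving out 1 array). Without arrays 306, 309 and 310 the change was 0.12 (limma adjusted p = 0.794).

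Psmb8, the counterpart of the chymotrypsin-like Psmb5, had levels of 8.58, 8.43, 11.09, 10.58 and 9.89 on the Exercise arrays in the same order, against 9.33, 8.64, 8.72, 8.57 and 8.25 on the non-Exercise arrays. Arrays 306, 309 and 310 lay above all others, and arrays 300 and 301 did not. Its change of 1.01 ± 0.42 did not pass (limma adjusted p = 0.123), but passed without Exercise array 300 or 301 (adjusted p from 0.0215 to 0.263 leaving out 1 array). Without the 3 high arrays the change was -0.20 (limma adjusted p = 0.612). Psmb10, the counterpart of the trypsin-like Psmb7, had levels of 9.70, 9.85, 11.69, 11.40 and 10.56 on the Exercise arrays, against 10.45, 9.70, 9.63, 9.98 and 9.24 on the non-Exercise arrays. Here array 310 exceeded non-Exercise array 326 by little, and the 2 low Exercise arrays again fell among the non-Exercise arrays. The change of Psmb10 was 0.84 ± 0.34 and did not pass (limma adjusted p = 0.112). It passed without Exercise array 300 or 301 (adjusted p from 0.0385 to 0.247 leaving out 1 array), and was -0.03 without the 3 high arrays.

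The activator genes moved less. Psme2 had levels of 10.86, 10.9996, 12.07, 12.13 and 11.33 on the Exercise arrays, against 11.38, 10.96, 11.07, 11.08 and 10.82 on the non-Exercise arrays, a change of 0.42 ± 0.22 (limma adjusted p = 0.222). Psme1, its partner in the activator ring, had levels of 10.91, 11.12, 12.09, 12.03 and 11.48 on the Exercise arrays, against 11.75, 11.31, 11.34, 11.47 and 11.17 on the non-Exercise arrays. For both, array 326 exceeded Exercise array 310, and for Psme1 the 2 lowest of all arrays were Exercise arrays 300 and 301. The change of Psme1 was 0.12 ± 0.20 (limma adjusted p = 0.781), and without arrays 306, 309 and 310 it was -0.40 (limma adjusted p = 0.0525). Without these 3 arrays none of the 5 immune genes passed in limma, with 0 higher and 1 lower (Psme1) at an unadjusted p under 0.05. Of all 19938 genes 1919 were then higher and 3155 lower at that cutoff. Leaving out 1 array, the number of immune genes called ranged from 0 to 3, with 3 without Exercise array 300 or 301. Of all 19938 genes 1177 were called higher without array 300 and 1529 without array 301, against 1266 with all arrays.

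**Figure D1:**
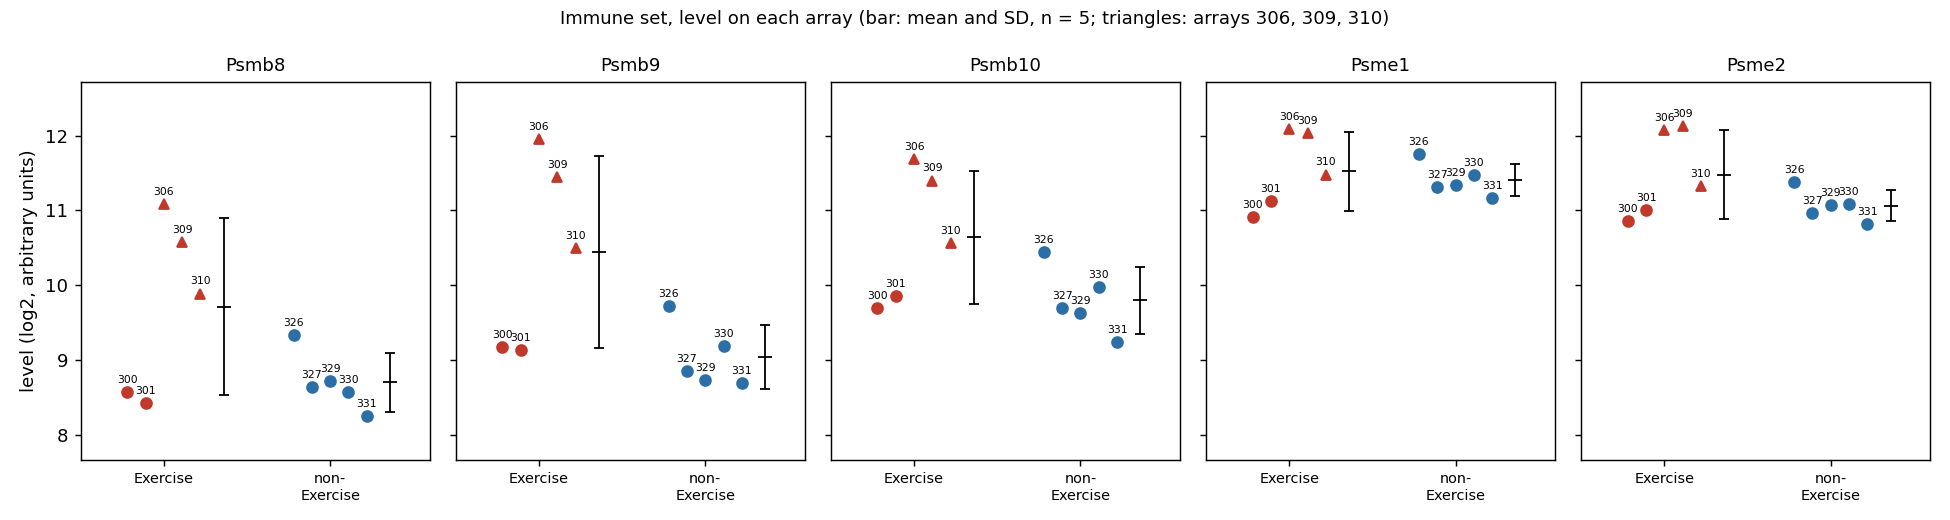
Level of the 5 immune set genes on each array (log2, arbitrary units), Exercise left of non-Exercise, with the mean and SD (n = 5) beside each group and triangles for Exercise arrays 306, 309 and 310. Psmb9 reaches 11.95 on array 306 and lies at 9.17 and 9.14 on Exercise arrays 300 and 301, within the non-Exercise range of 8.70 to 9.72.

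The immune genes varied far more between tumours than the other members. The SD within the Exercise group had a median of 0.89 over the 5 immune genes, 0.12 over the 43 constitutive members and 0.14 over all genes. Within the non-Exercise group these medians were 0.39, 0.08 and 0.12, and the highest non-Exercise array was 326 for each of the 5 immune genes. The mean of the 43 constitutive members, each centred on its mean over 10 arrays, stayed between -0.12 and 0.04 on the Exercise arrays and between -0.04 and 0.05 on the non-Exercise arrays. The same mean of the 5 immune genes spanned -0.54 to 1.4 on the Exercise arrays and -0.75 to 0.15 on the non-Exercise arrays.

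To ask whether an immune subunit and the subunit it replaces changed unequally, their log2 difference was taken on each array, in which the unknown offset between probe sets cancels between groups. Psmb9 minus Psmb6 was -2.75, -2.85, -0.27, -0.73 and -1.36 on the Exercise arrays, against -2.25, -3.15, -3.27, -2.66 and -3.24 on the non-Exercise arrays. Its mean was 1.32 higher in Exercise tumours (exact permutation p = 0.0714, two-sided; adjusted p = 0.107 over 3 pairs). For Psmb8 minus Psmb5 the mean was 1.22 higher (exact permutation p = 0.0714; adjusted p = 0.107), and for Psmb10 minus Psmb7 it was 0.79 higher (exact permutation p = 0.119; adjusted p = 0.119). No pair passed, where the smallest p that 5 against 5 arrays can give is 0.00794. Arrays 306, 309 and 310 gave the 3 highest differences for each pair. Without them the 3 group differences were 0.12, 0.04 and -0.08. With limma over all genes in place of the permutation test, Psmb9 minus Psmb6 passed (limma adjusted p = 0.0462).

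**Figure D2:**
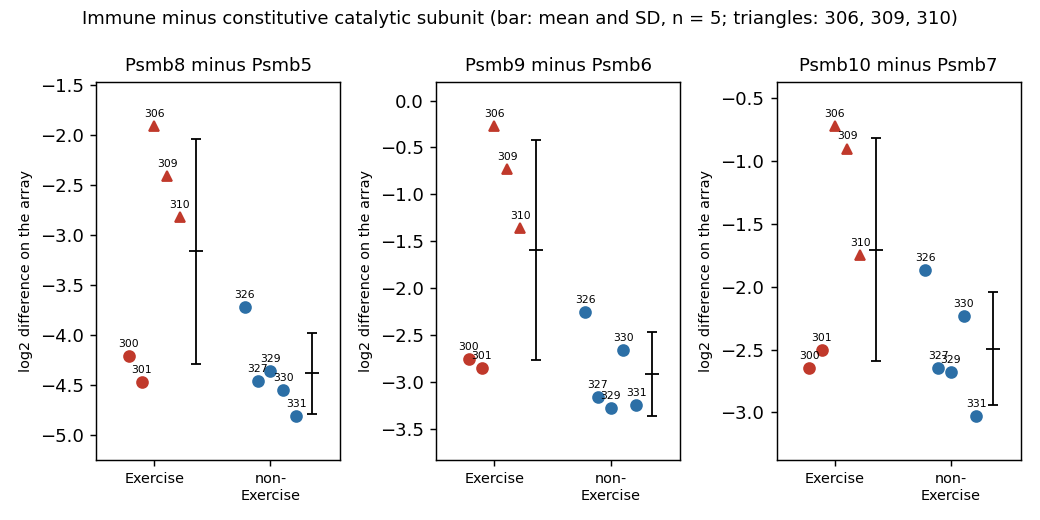
Log2 level of an immune catalytic subunit minus that of the constitutive subunit it replaces, on each array, Exercise left of non-Exercise, with mean and SD (n = 5) and triangles for arrays 306, 309 and 310. For Psmb9 minus Psmb6 these 3 arrays lie between -1.36 and -0.27, and arrays 300 and 301 at -2.75 and -2.85, among the non-Exercise arrays.

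Constitutive members moved in both directions by small amounts. Among the 43 measured there were 4 increases and 4 decreases past the threshold and 35 genes that missed it, with a median log2 change of -0.01 beside -0.02 over all genes. Of all 50 member genes 9 passed, or 18.0%, near the 17.0% of all genes. With median centring in place of quantile normalization 3 member genes were higher and 11 lower. The 5 Exercise values were all above the 5 non-Exercise values for 4 member genes, where 3.74% of all genes had this pattern, and all below for 5, where 8.33% had it.

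Of the catalytic constitutive subunits only Psmb5 passed, and it fell. Psmb5, the chymotrypsin-like subunit and the main target of proteasome inhibitor drugs, had levels of 12.79, 12.90, 13.00, 12.99 and 12.71 on the Exercise arrays, against 13.06, 13.09, 13.08, 13.11 and 13.06 on the non-Exercise arrays. The groups did not overlap, and the change was -0.20 ± 0.05 (limma adjusted p = 0.0185). Exercise arrays 306 and 309, with the highest Psmb8, had the highest Psmb5 of their group. Psmb6 averaged 12.03 ± 0.16 in Exercise tumours and 11.95 ± 0.06 in non-Exercise tumours (SD, n = 5 each), a change of 0.08 (limma adjusted p = 0.515). Psmb7 averaged 12.34 ± 0.04 in Exercise tumours and 12.29 ± 0.06 in non-Exercise tumours (SD, n = 5 each), a change of 0.05 (limma adjusted p = 0.489).

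Among the beta subunits without a proteolytic centre, Psmb2 rose and Psmb1, Psmb3 and Psmb4 did not pass. Psmb2 had levels of 12.79, 12.62, 12.90, 12.82 and 12.64 on the Exercise arrays, against 12.39, 12.36, 12.38, 12.37 and 12.29 on the non-Exercise arrays. The lowest Exercise array lay above every non-Exercise array, and the change was 0.40 ± 0.05, or 1.32-fold (limma adjusted p = 0.000349). The other 3 ranged from -0.01 for Psmb1 to 0.08 for Psmb4.

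The alpha ring, whose N-termini gate the entrance of the core, held the largest decrease of any member. Psma3 had levels of 11.91, 11.94, 11.95, 12.06 and 11.68 on the Exercise arrays, against 12.42, 12.46, 12.43, 12.57 and 12.35 on the non-Exercise arrays. The groups did not overlap, and the change was -0.54 ± 0.06, or 1.45-fold lower (limma adjusted p = 0.000200). The 3 probe sets of Psma3 changed by -0.54, -0.51 and -0.48, but the platform gives them the same accessions, so they may read shared sequence and are not independent. In the opposite direction Psma5 had levels of 11.70, 11.66, 11.90, 11.92 and 11.53 on the Exercise arrays, against 11.46, 11.49, 11.47, 11.50 and 11.42 on the non-Exercise arrays. Again no Exercise array fell among the non-Exercise arrays, with a change of 0.28 ± 0.07 (limma adjusted p = 0.0152), and its dimmer probe set changed by 0.17 (adjusted p = 0.0704 with each probe set tested on its own). The other 6 alpha genes did not pass, from -0.18 for Psma7 to 0.16 for Psma1, which passed without Exercise array 310. They include Psma8, the alpha subunit of testis, which was the dimmest member at percentile 22.1 of mean level. Psmb11, the catalytic subunit of thymus epithelium, had a change of -0.01 (limma adjusted p = 0.980).

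In the 19S cap 2 of 17 subunits rose and none fell in limma, with 3 higher and 1 lower at an unadjusted p under 0.05. Of all 19938 genes 2241 were higher and 3581 lower at that cutoff. Psmd7, the partner of the deubiquitinase Psmd14 in the cap's lid, had levels of 11.84, 11.65, 11.62, 11.82 and 11.67 on the Exercise arrays, against 11.40, 11.43, 11.57, 11.24 and 11.32 on the non-Exercise arrays. Its change was 0.33 ± 0.07 with no overlap (limma adjusted p = 0.00493), while Psmd14 itself had a change of 0.02 (limma adjusted p = 0.908). Psmd4, a receptor for ubiquitin chains, had levels of 11.78, 11.72, 11.92, 11.84 and 11.70 on the Exercise arrays, against 11.51, 11.57, 11.59, 11.52 and 11.58 on the non-Exercise arrays. It rose by 0.24 ± 0.05, also with no overlap (limma adjusted p = 0.00574). The other 9 non-ATPase subunits ranged from -0.10 for Psmd6 to 0.17 for Psmd3, which passed without Exercise array 310. None of the 6 ATPases, the motor that unfolds substrates, passed in limma, and 1 (Psmc4) was lower at an unadjusted p under 0.05. Psmc4 was at the low end with -0.13 ± 0.06 (limma adjusted p = 0.132) and all Exercise arrays below all non-Exercise arrays, and Psmc1 at the high end with 0.07.

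Regulators outside the immune set fell or did not pass. Psmf1, a protein that binds the core and inhibits it in vitro, had levels of 11.23, 11.25, 11.38, 11.26 and 11.03 on the Exercise arrays, against 11.64, 11.59, 11.63, 11.62 and 11.59 on the non-Exercise arrays. The groups were well apart, with a change of -0.38 ± 0.06 (limma adjusted p = 0.000787). Psme3, which forms the nuclear activator ring, had levels of 12.89, 12.86, 12.76, 12.77 and 12.69 on the Exercise arrays, against 12.93, 13.01, 12.98, 13.09 and 12.91 on the non-Exercise arrays. It fell by 0.19 on the log2 scale (SE 0.05, limma adjusted p = 0.0166), and without arrays 306, 309 and 310 its change was -0.11 (limma adjusted p = 0.254). Psme4, a larger activator of another family, had a change of 0.06 (limma adjusted p = 0.674).

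All 7 assembly chaperones had a negative change and none passed in limma, with 4 lower at an unadjusted p under 0.05. Of all 19938 genes 3581 were lower at that cutoff, and 11377 had a negative change. The changes of the chaperones ranged from -0.28 for Psmg1, which helps to build the alpha ring (limma adjusted p = 0.110), to -0.02 for Psmg3. In the table as deposited the change of Psmg3 was 0.01. With median centring 4 of the 7 (Psmd5, Psmd9, Psmd10 and Psmg1) were called lower, and with array weights 3 (Psmd9, Psmd10 and Psmg1). Of all genes 3076 were called lower with median centring and 2803 with array weights, against 2118 in the main comparison. The change of Psmd9, a chaperone of the cap's base, was -0.20 (limma adjusted p = 0.0739), and it passed with array 306 or 331 left out. Psmg1 and Psmd10 also passed without non-Exercise array 331. The count of lower member genes, 4 in all, was 9 without that array and from 4 to 5 without any other. Of all genes 2334 were called lower without that array. The 2 genes that are no subunits, the meiotic recombination factor Psmc3ip and the Psme3 partner Psme3ip1, had changes of -0.24 and -0.19 (limma adjusted p = 0.0574 and 0.0533). Both passed without non-Exercise array 331, Psmc3ip also without Exercise array 300 and Psme3ip1 without Exercise array 301.

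**Figure D3:**
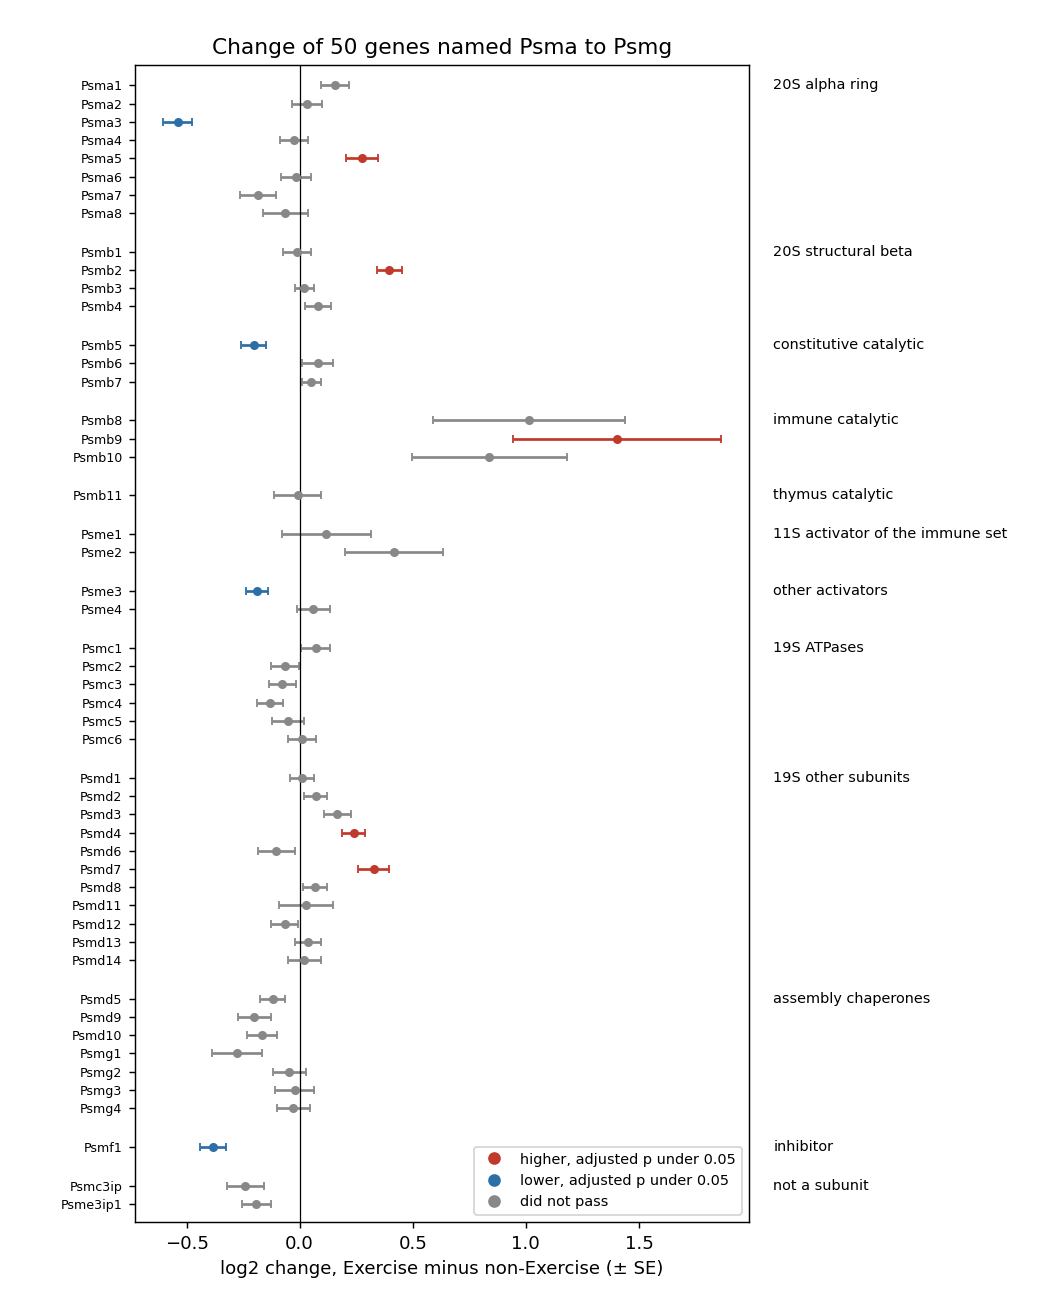
Log2 change, Exercise minus non-Exercise, with SE, of the 50 member genes in the order of their roles, red for higher and blue for lower at a limma adjusted p under 0.05. Psmb9 lies farthest right at 1.40 with a SE of 0.46, and Psma3 farthest left at -0.54 with a SE of 0.06.

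**Figure D4:**
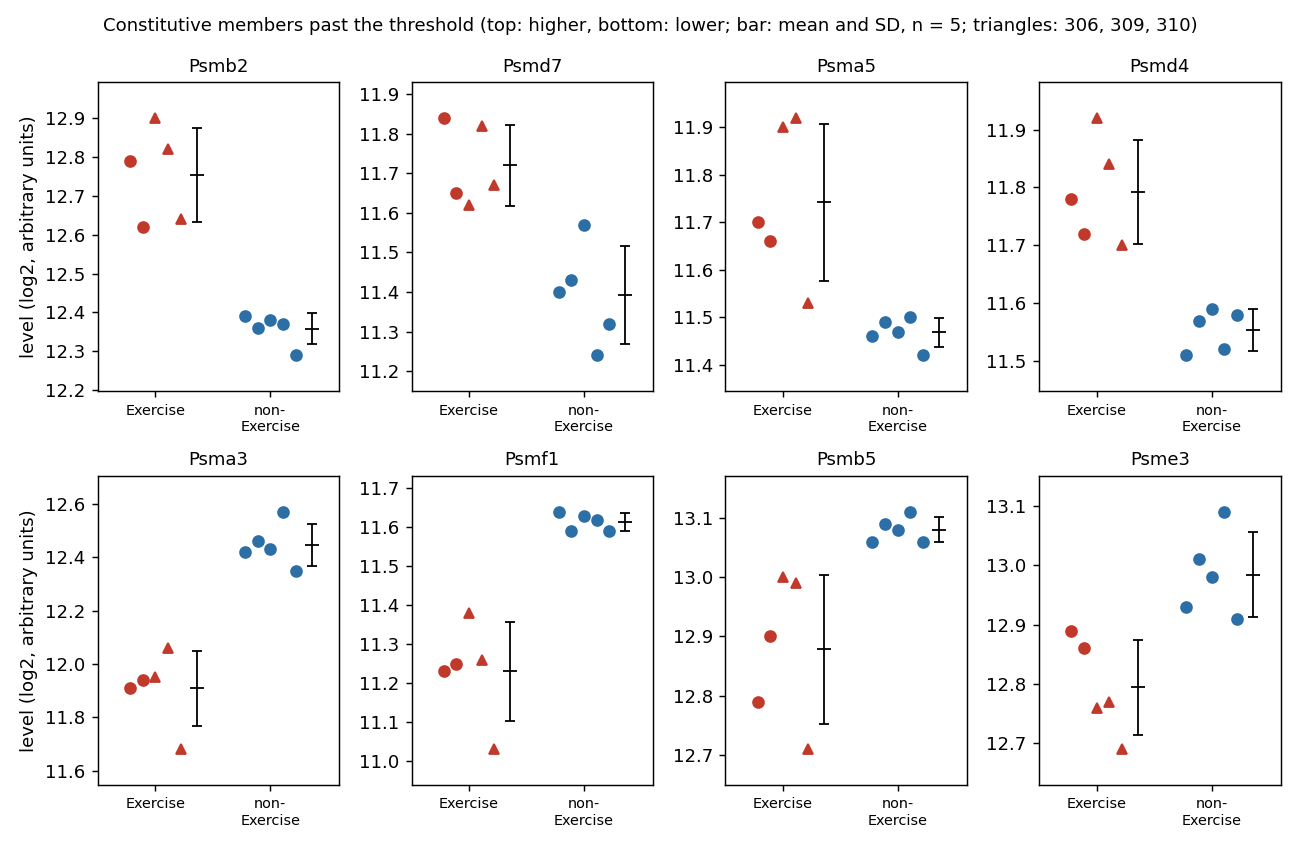
Level (log2, arbitrary units) on each array of the 8 constitutive members past the threshold, Exercise left of non-Exercise, 4 higher in the upper row and 4 lower in the lower row, with mean and SD (n = 5) and triangles for arrays 306, 309 and 310. In each panel the groups do not overlap, and the largest difference is that of Psma3 at -0.54.

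Of the 8 constitutive calls 7 were kept without the 3 arrays on which the catalytic immune subunits were high. Without arrays 306, 309 and 310, 11.8% of all genes passed. Of the member genes 5 were then higher, beside 3.76% of all genes, and 3 lower, beside 8.08%. Psmb2 (0.35), Psmd7 (0.35), Psma5 (0.21), Psmd4 (0.20), Psma3 (-0.53), Psmf1 (-0.38) and Psmb5 (-0.23) kept their calls, Psme3 and Psmb9 lost theirs, and the alpha subunit Psma1 passed (0.23, limma adjusted p = 0.0415). Leaving out 1 array at a time, each of the 8 passed every time. With median centring Psma5 (0.18, limma adjusted p = 0.0856) and Psmd4 (0.15, limma adjusted p = 0.0919) were not called. Without the intensity trend Psmb5 (limma adjusted p = 0.0627) and Psme3 (limma adjusted p = 0.0646) were not called.

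Several, though not all, of the genes that work beside the immunoproteasome were highest on these 3 arrays too. Of 10 measured partners in class I presentation 1 rose, 9 did not pass and none fell in limma, with 4 higher and 0 lower at an unadjusted p under 0.05. The 1 was Nlrc5, the transactivator of class I genes, at 10.64 ± 0.47 in Exercise tumours and 9.91 ± 0.14 in non-Exercise tumours (SD, n = 5 each), a change of 0.73 ± 0.17 (limma adjusted p = 0.0107). Nlrc5 had 19 probe sets, and these values are from the brightest, with the others not described here. Without arrays 306, 309 and 310 the change of Nlrc5 was 0.29 (limma adjusted p = 0.0757) and no partner passed, with 1 higher and 1 lower at an unadjusted p under 0.05. With robust variances Nlrc5 did not pass either (limma adjusted p = 0.0517). Tap1, which shares its promoter region with Psmb9, had levels of 9.56, 9.40, 11.68, 11.58 and 10.91 on the Exercise arrays, against 10.41, 9.45, 9.26, 9.85 and 8.999 on the non-Exercise arrays. As for Psmb9, arrays 306, 309 and 310 were the 3 highest and array 326 the next, but the change of 1.03 ± 0.41 did not pass (limma adjusted p = 0.109). Tap1 was -0.12 without the 3 arrays, and passed without Exercise array 300 or 301 (adjusted p from 0.0197 to 0.242 leaving out 1 array). The number of partners called was 3 without array 300 and 5 without array 301.

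Of 9 measured genes of interferon gamma signalling 2 rose and none fell in limma, with 5 higher and 1 lower at an unadjusted p under 0.05. Irf8, a transcription factor of myeloid cells, rose by 1.02 ± 0.30 (limma adjusted p = 0.0308), and Irf9, a transcription factor of interferon responses, by 0.63 ± 0.17 (limma adjusted p = 0.0218). Without arrays 306, 309 and 310 both calls were lost, with Irf8 at 0.19 (limma adjusted p = 0.601) and Irf9 at 0.17 (limma adjusted p = 0.453), and the list then had 0 higher and 1 lower (Ifngr2). Robust variances also ended both calls (limma adjusted p = 0.121 for Irf8 and 0.0876 for Irf9), and array weights that of Irf8 (limma adjusted p = 0.0589). Leaving out array 306, 309, 310, 327, 329, 330 or 331 removed the call of Irf8, and leaving out 309, 310, 327, 329 or 331 that of Irf9. For Irf1, the factor known to drive immune subunit genes, the change was 0.90 ± 0.35 (limma adjusted p = 0.102), and it passed without Exercise array 300 or 301. Ifng itself was dim, at percentile 11.5 of mean level, with a change of 0.23 (limma adjusted p = 0.296). The number of calls was 0 with 309, 310, 327, 329 or 331 left out, 1 with 306 or 330 left out, and 4 with 300 or 301 left out. The receptor chain gene Ifngr2 was called lower with array 309 or 331 left out. H2-K1 and H2-D1 were not analysed here.

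All of arrays 306, 309 and 310 lay above the other 7 for Psmb8, Psmb9 and Psmb10, for 6 of the 10 class I partners, for 4 of the 9 signalling genes, for none of the 43 constitutive members and for 3.79% of all genes. This count was added after the levels had been seen.

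**Figure D5:**
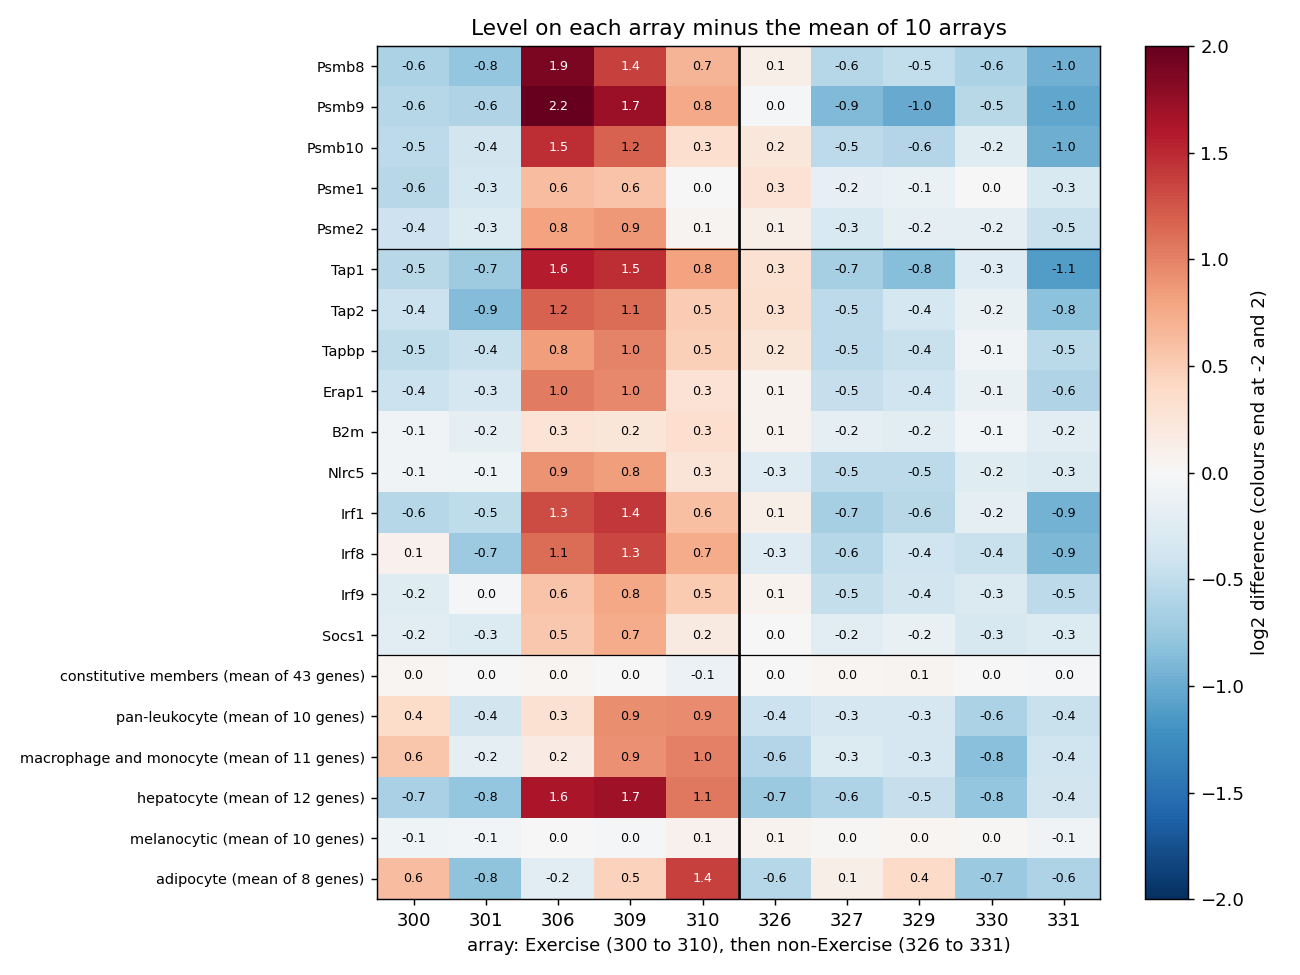
Log2 level on each array minus the mean of 10 arrays, Exercise arrays left of the line, for the immune set, for the 10 class I and interferon signalling genes highest on arrays 306, 309 and 310, and for the mean of the constitutive members and of 5 marker lists. Psmb8, Psmb9, Psmb10 and the hepatocyte list are highest on the same 3 arrays, Psme1 and Psme2 are high on 306 and 309 but near their mean on 310, and the leukocyte list is also high on array 300.

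Arrays 306, 309 and 310 were set apart by their hepatocyte markers, so that the hepatocyte list follows their split from the other 7 is no result. Leukocyte and macrophage markers were higher in the Exercise group. In RNA of whole tumours fewer cells of a type and less RNA per cell cannot be told apart. Of 10 pan-leukocyte markers 8 rose and none fell in limma (9 higher and 0 lower at an unadjusted p under 0.05), with Ptprc at 1.16 ± 0.27 (limma adjusted p = 0.00921) and Cd53 at 1.31 (limma adjusted p = 0.000666). Their mean level lay between 9.65 and 10.95 on the Exercise arrays and between 9.37 and 9.68 on the non-Exercise arrays. Of 11 macrophage and monocyte markers 10 rose, with Itgam at 1.43 (limma adjusted p = 0.00114), and the mean level lay between 10.04 and 11.22 on the Exercise arrays and between 9.38 and 9.95 on the non-Exercise arrays. The order of the arrays differed from that of the immune set. On Exercise arrays 300, 301, 306, 309 and 310 the centred leukocyte means were 0.36, -0.36, 0.31, 0.93 and 0.94. The immune set means on these arrays were -0.54, -0.47, 1.4, 1.14 and 0.37. On the non-Exercise arrays the leukocyte mean lay between -0.64 and -0.33, and the immune set mean between -0.75 and 0.15. The hepatocyte markers, by which the split was chosen, had centred means of 1.64, 1.7 and 1.06 on arrays 306, 309 and 310. On the other 7 these means lay between -0.78 and -0.36. Of 12 measured, 2 rose and none fell in limma (11 higher and 0 lower at an unadjusted p under 0.05), with Cps1 at 1.16 (limma adjusted p = 0.0362) and Alb at 2.61 (limma adjusted p = 0.108), and their mean level lay between 7.40 and 9.89 on the Exercise arrays and between 7.41 and 7.82 on the non-Exercise arrays. Without arrays 306, 309 and 310 the leukocyte count was 3 higher and 1 lower, the macrophage count 6 higher and the hepatocyte count 0 higher and 1 lower. Ptprc (0.63, limma adjusted p = 0.131), Cps1 (0.07, limma adjusted p = 0.748) and Apoc3 (0.09, limma adjusted p = 0.665) lost their calls there, and so did Retn (1.11, limma adjusted p = 0.254). Of 8 adipocyte markers 1, Retn, rose (1.73, limma adjusted p = 0.0458), and of 10 melanocytic markers none passed in limma (0 higher and 2 lower at an unadjusted p under 0.05), Tyr having the smallest p (-0.17, limma adjusted p = 0.0598). Leaving out array 306, 309 or 310, or any 1 array of the non-Exercise group, removed the calls of Cps1 and Apoc3, and leaving out 300, 309, 310, 326, 327, 330 or 331 that of Retn. Tyr was called lower without Exercise array 310. The part of these cells in the levels of the immune set was not tested.

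Proteins that work with the proteasome under other names also moved little. Of 10 measured 1 rose, and none fell in limma (3 higher and 0 lower at an unadjusted p under 0.05). Pomp, the chaperone that matures new cores, was at 10.73 ± 0.08 in Exercise tumours and 10.52 ± 0.07 in non-Exercise tumours (SD, n = 5 each), a change of 0.21 ± 0.06 with no overlap (limma adjusted p = 0.0247). Leaving out array 300, 306, 327 or 330 removed the call, as did median centring (limma adjusted p = 0.219) and leaving out arrays 306, 309 and 310 together (limma adjusted p = 0.102). In the same list Akirin2 passed without those 3 arrays (0.25, limma adjusted p = 0.0226) and without array 310 alone. Of 7 measured genes that control proteasome genes or prepare substrates, Vcp, the unfoldase that hands ubiquitinated proteins to the cap, rose by 0.25 ± 0.05 (limma adjusted p = 0.00344), a call that was lost with median centring (0.15, limma adjusted p = 0.102). Nfe2l1, the transcription factor that raises proteasome genes when degradation falls short, changed by -0.17 ± 0.05 (limma adjusted p = 0.0422), with all Exercise arrays below all non-Exercise arrays. Leaving out array 300, 309, 310, 327, 329, 330 or 331 removed the call of Nfe2l1 (adjusted p from 0.0466 to 0.0963 leaving out 1 array). It was also lost without the 3 arrays (-0.20, limma adjusted p = 0.0867), without the intensity trend (limma adjusted p = 0.0998) and with array weights (limma adjusted p = 0.0606). Mafg of the same list passed without the 3 arrays (0.34, limma adjusted p = 0.0365) and with array 306, 310 or 331 left out. Of the ubiquitin and E1 list 2 genes were measured and neither passed in limma, Uba7, an enzyme of the ubiquitin-like ISG15, at 0.18 and Uba6 at 0.07, with 1 higher at an unadjusted p under 0.05.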

How the data were processed

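The deposited table held 1 value per probe set and array, summarised with PLIER per the submitters' processing notes. The table does not state the scale of its values; from their range, 4.66 to 14.55, they were taken as log2 values, with the base and any added constant unknown. No scanner files, scan dates or detection calls were used here, so no batch and no background limit could be examined. Per the labels' protocols RNA was extracted with 1 of 2 column kits, and which tumour had which is not stated.

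Array medians of the deposited log2 values ran from 8.70 to 8.77 on the Exercise arrays and from 8.64 to 8.70 on the non-Exercise arrays. The arrays were quantile normalized. The platform annotation gave 21789 of the 35556 probe sets a single symbol and 1621 several, and did not list 12146. A gene was read from its brightest probe set, which gave 19938 genes (999 with several probe sets). A probe set naming both Psme2b and Psme2 lies outside the rule. Genes were tested with limma 3.58.1 in R 4.3.3 (lmFit, eBayes with a trend), 5 against 5 arrays, with Benjamini-Hochberg adjustment. Pair differences were tested with an exact permutation test. Named genes were the immune set and its counterparts, every member past the threshold, the highest and lowest of each role group, and in the related and marker lists the called genes and those with the smallest p. Members and lists were chosen with earlier results of these data known. Other genes given with values (among them Psma1, Psma7, Psma8, Psmb4, Psmd3, Psmd9, Psmd10, Psmd14, Ifng, Ifngr2, Apoc3, Akirin2, Mafg, Uba6 and Uba7) were named after their values were seen. Alternatives were other scalings, probe set rules, variance models and a filter on dim genes, leaving out each array, and leaving out Exercise arrays 306, 309 and 310. The fit was tested on simulated data.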

Additional observations from a re-analysis of the deposited data

Results flagged for a closer look

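In 106 groups of 5 values (50 member genes and 3 pair differences in each group) the highest and the lowest array were set against the others of their group with Dixon's criterion. Of these groups 5 stood out. Chance gives about 1 in 20 groups, so this number is near that given by chance, and the values below are description only. Psmc4, an ATPase of the cap, was at 12.23 on Exercise array 310, with the next Exercise array at 12.47. Psmg3, a chaperone of the core, was at 8.98 on Exercise array 310, with the next at 9.34. Psmd9, a chaperone of the cap, was at 10.76 on Exercise array 306, above the next at 10.52. Psmb2 was at 12.29 on non-Exercise array 331, with the next at 12.36, and every Exercise array was above all 5. Psmd11, a subunit of the cap's lid, was at 10.46 on non-Exercise array 330, with the next at 10.79.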

How the results depend on the processing

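No paired analysis was possible because the groups share no replicate numbers. Leaving out 1 array, the genes called numbered 858 to 1529 higher and 1435 to 2334 lower, the member genes 4 to 7 higher and 4 to 9 lower, the immune set genes 0 to 3 higher, and the related genes 2 to 11 higher and 0 to 1 lower. The differences of Psmb8 minus Psmb5, Psmb9 minus Psmb6 and Psmb10 minus Psmb7 ranged over 0.903 to 1.54, 0.993 to 1.64 and 0.542 to 1.02. Among the genes named by rule the sign turned when 1 array was left out for Psmb1 (-0.0388 to 0.0256), Psmb11 (-0.095 to 0.0555), Psme1 (-0.0228 to 0.272) and Psmg3 (-0.0517 to 0.0537).

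With median centring 3 member genes were higher and 11 lower, and 3 related genes higher and 3 lower. Of all genes 938 were higher and 3076 lower in that setting. Among the genes named by rule median centring turned the signs of Psmb6 (-0.0123), Psmb7 (-0.0399), Psmc1 (-0.018) and Psme4 (-0.0234). Without the intensity trend 2 member genes and 0 related genes were lower, and with array weights 10 and 2. Of all genes 1883 were lower without the intensity trend and 2803 with array weights. With robust variances 3 related genes were higher, and in the table as deposited 2 were lower. No immune set gene was called by limma with the mean of probe sets, no intensity trend, robust variances, array weights or without arrays 306, 309 and 310. In the table as deposited and with array weights Psmg3 was at 0.00695 and 0.0223, and Psmb11 at 0.0579 and 0.0517. Psmb9 minus Psmb6 passed with limma over all genes (1.32, limma adjusted p = 0.0462).

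Without arrays 306, 309 and 310, 750 genes were higher and 3 related genes were higher. There Psmb10 minus Psmb7 was at -0.0849, and among the genes named by rule the sign also turned for Psmb8 (-0.20), Psmb10 (-0.0272), Psme1 (-0.40), Psme2 (-0.13), Psmg3 (0.0745), Psmb11 (0.20), Tap1 (-0.12), Irf1 (-0.0927) and Alb (-0.64). With 2 against 5 arrays the exact permutation test cannot give a p under 0.0952. The causes of these changes were not tested. Detection calls were not used here, so no limit at low signal can be given for dim genes such as Psma8 and Ifng.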
